A study of Mus musculus with 21 samples.

Results

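The core circadian clock was measured in mouse lung as 10 genes: the activators Arntl (also called Bmal1), Clock and Npas2, the repressors Per1, Per2, Per3, Cry1 and Cry2, and the nuclear receptors Nr1d1 and Nr1d2. They were chosen by gene symbol in the array annotation, as 10 of the 12393 genes named there. Together they had 16 of the 22626 probe sets tested. Female BALB/c mice, 8 weeks old, received 1 aspiration into the trachea of MACA, the crude antigens of a fungus, Metarhizium anisopliae (20 µg in 50 µl), of bovine serum albumin (BSA, the same dose), or of vehicle alone, which was Hank's balanced salt solution (HBSS). The whole left lung was taken 12 h or 3 h later. At 12 h there were 3 lungs after MACA, 4 after BSA and 4 after HBSS, and at 3 h there were 4 after MACA, 3 after BSA and 3 after HBSS. Every mouse was dosed, so the vehicle lungs had been through the same procedure, and the sources used here give neither the clock time of dosing nor that of sampling. In the comparison of 12 h with 3 h, time after dosing and time of day therefore cannot be told apart. The design asks how the clock genes differed between 12 h and 3 h, and whether they differed between agents at either time.

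In the mammalian clock, ARNTL pairs with CLOCK or with its relative NPAS2 and switches on genes through E-box sequences. Among these genes are Per and Cry, whose proteins return to the nucleus and inhibit the pair, and Nr1d1 and Nr1d2, which encode REV-ERB alpha and beta, haem-binding receptors that repress Arntl and Npas2. Arntl and Npas2 transcripts therefore peak far from Nr1d1, Nr1d2 and Per transcripts in the day. The mouse lung runs this clock in the tissue itself, with a strong rhythm in the club cells of the airways, and glucocorticoids can set it through Per1.

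Promoters are shown for members in which a clock motif was found. Transcripts of Per1, Per3 and Nr1d1 changed between times, and that of Cry1 was not called. Cry2, which also changed and held a motif, is not printed. RefSeq (GRCm38.p6) held 13 promoters for 9 of the 10 genes, not Per2. The 250 bases before each transcription start were searched on both strands for the E-box CACGTG, the E-box variant CACGTT, the ROR element core TAGGTCA, the D-box TTANGTAA and the cAMP response element TGACGTCA. In the sequences that follow, capitals mark a match, AACGTG being CACGTT on the other strand.
Per1, chr11:69098699-69098948, plus strand: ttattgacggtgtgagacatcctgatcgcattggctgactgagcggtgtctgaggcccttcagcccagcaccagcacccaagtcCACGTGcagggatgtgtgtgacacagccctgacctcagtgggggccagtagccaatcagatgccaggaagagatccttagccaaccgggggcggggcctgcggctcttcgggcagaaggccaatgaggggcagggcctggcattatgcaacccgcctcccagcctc
Per3, chr4:151044666-151044915, minus strand: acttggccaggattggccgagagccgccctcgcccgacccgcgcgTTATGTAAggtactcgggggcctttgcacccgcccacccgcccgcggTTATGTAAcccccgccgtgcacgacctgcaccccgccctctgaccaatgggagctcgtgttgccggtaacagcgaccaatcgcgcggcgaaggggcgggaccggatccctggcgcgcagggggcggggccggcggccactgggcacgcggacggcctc
Cry1, chr10:85185055-85185304, minus strand: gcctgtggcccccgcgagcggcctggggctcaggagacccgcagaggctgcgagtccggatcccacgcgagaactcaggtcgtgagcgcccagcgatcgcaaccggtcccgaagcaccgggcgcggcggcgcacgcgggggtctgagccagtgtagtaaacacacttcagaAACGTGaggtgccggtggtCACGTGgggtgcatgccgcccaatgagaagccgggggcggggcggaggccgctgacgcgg
Nr1d1, chr11:98775378-98775627, minus strand: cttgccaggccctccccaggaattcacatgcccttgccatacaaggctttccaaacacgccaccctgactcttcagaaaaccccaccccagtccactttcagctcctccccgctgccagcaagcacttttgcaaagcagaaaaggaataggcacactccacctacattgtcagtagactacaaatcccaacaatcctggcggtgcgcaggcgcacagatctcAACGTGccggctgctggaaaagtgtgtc

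Counted back from the start, the base before it being -1, the first base of the E-box stood at -166 in Per1 and at -60 in Cry1. The other Per1 promoter, not printed, had 0 matches to these motifs. The variant stood at -79 in Cry1, -28 in Nr1d1 and, in a promoter also not printed, -166 in Cry2. Per3 held the D-box at -205 and -158, as TTATGTAA both times. Of 32851 mouse promoters, 6.02% held the E-box, 3.85% the variant, 2.06% the D-box, 2.23% the ROR core and 1.55% the cAMP element. Neither the ROR core nor the cAMP element had a match in these 13 promoters. A match describes the letters in this window and shows no binding.

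Values are log2(normalized intensity + 16), 1 value per lung, from the brightest probe set of each gene unless another is named. A level under 5.83 lies within the noise of the arrays (the 95th percentile of the size of values below 0). Median deposited intensity ran from 93.5 to 288 per array before normalization. Precision is limited by the number of arrays. Lung markers were in place: all 5 alveolar, 3 airway and 4 endothelial markers were above noise on every array. Of the 3 liver markers, Apoa1 and Ttr were under it on every array. Alb was above it on 4 arrays, up to 6.65, all of them BSA or HBSS lungs at 12 h. 8 arrays stood apart in the ratio of a pair of probe sets for 1 spiked control, at 0.939 to 1.22 (the low set), against 1.62 to 1.91 in the other 13 (the high set). Every HBSS 12 h lung was in the low set, as were replicates 3 and 4 of BSA at 12 h and of MACA at 3 h. For HBSS at 12 h against any group of high-set arrays alone, agent or time and this set cannot be told apart. A set term in the model rests on MACA 3 h and BSA 12 h lungs, the groups with arrays in both sets.

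Between 3 h and 12 h the clock genes changed in opposite directions, and a gene called after more than 1 agent had the same sign each time. Arntl and Npas2 were higher at 12 h, and Per1, Per2, Per3, Cry2, Nr1d1 and Nr1d2 were lower. By limma's test 9 of 10 genes passed the threshold (adjusted p under 0.05) after MACA, 3 higher and 6 lower, where 9.12% of all probe sets passed. 8 of 10 passed after BSA, 2 higher and 6 lower (3.41% of all probe sets), and 9 of 10 after HBSS, 3 higher and 6 lower (6.93%). The median size of the log2 change over the 10 genes was 2.15 after MACA, 1.88 after BSA and 2.40 after HBSS, against 0.18 over all probe sets after each agent. With genes within the noise in all lungs of 1 group set to the least fold they allow, it was 1.98 after MACA and 2.31 after HBSS. The 9 genes that passed after MACA had no overlap between 12 h and 3 h lungs, as did the 8 after BSA and the 9 after HBSS, where 19.8%, 14% and 24% of all probe sets had none in those 3 comparisons. These are bulk samples, in which fewer cells of a type and less RNA per cell cannot be told apart. Within the high set 9 genes passed after MACA and 7 after BSA, Per1 being lost (adjusted p = 0.0867). After HBSS the times lie in different sets, so no within-set value exists, and with the set added to the model 8 of 10 passed, Per1 being lost (adjusted p = 0.0869). That term shrank 4 folds after HBSS by over 1.5 times on the linear scale. In log2 values Arntl went from 3.42 to 2.67 and Per2 from -2.77 to -2.06. Nr1d1 went from -4.02 to -3.24 and Nr1d2 from -2.47 to -1.51. The same term raised the fitted value of Npas2, within the noise at 3 h after HBSS, from 3.61 to 3.89. It raised that of Cry1, which was not called, from 0.37 to 0.42. When only the arrays of BSA lungs were fitted, 1 of the 8 genes passed, Arntl.

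**Figure D1:**
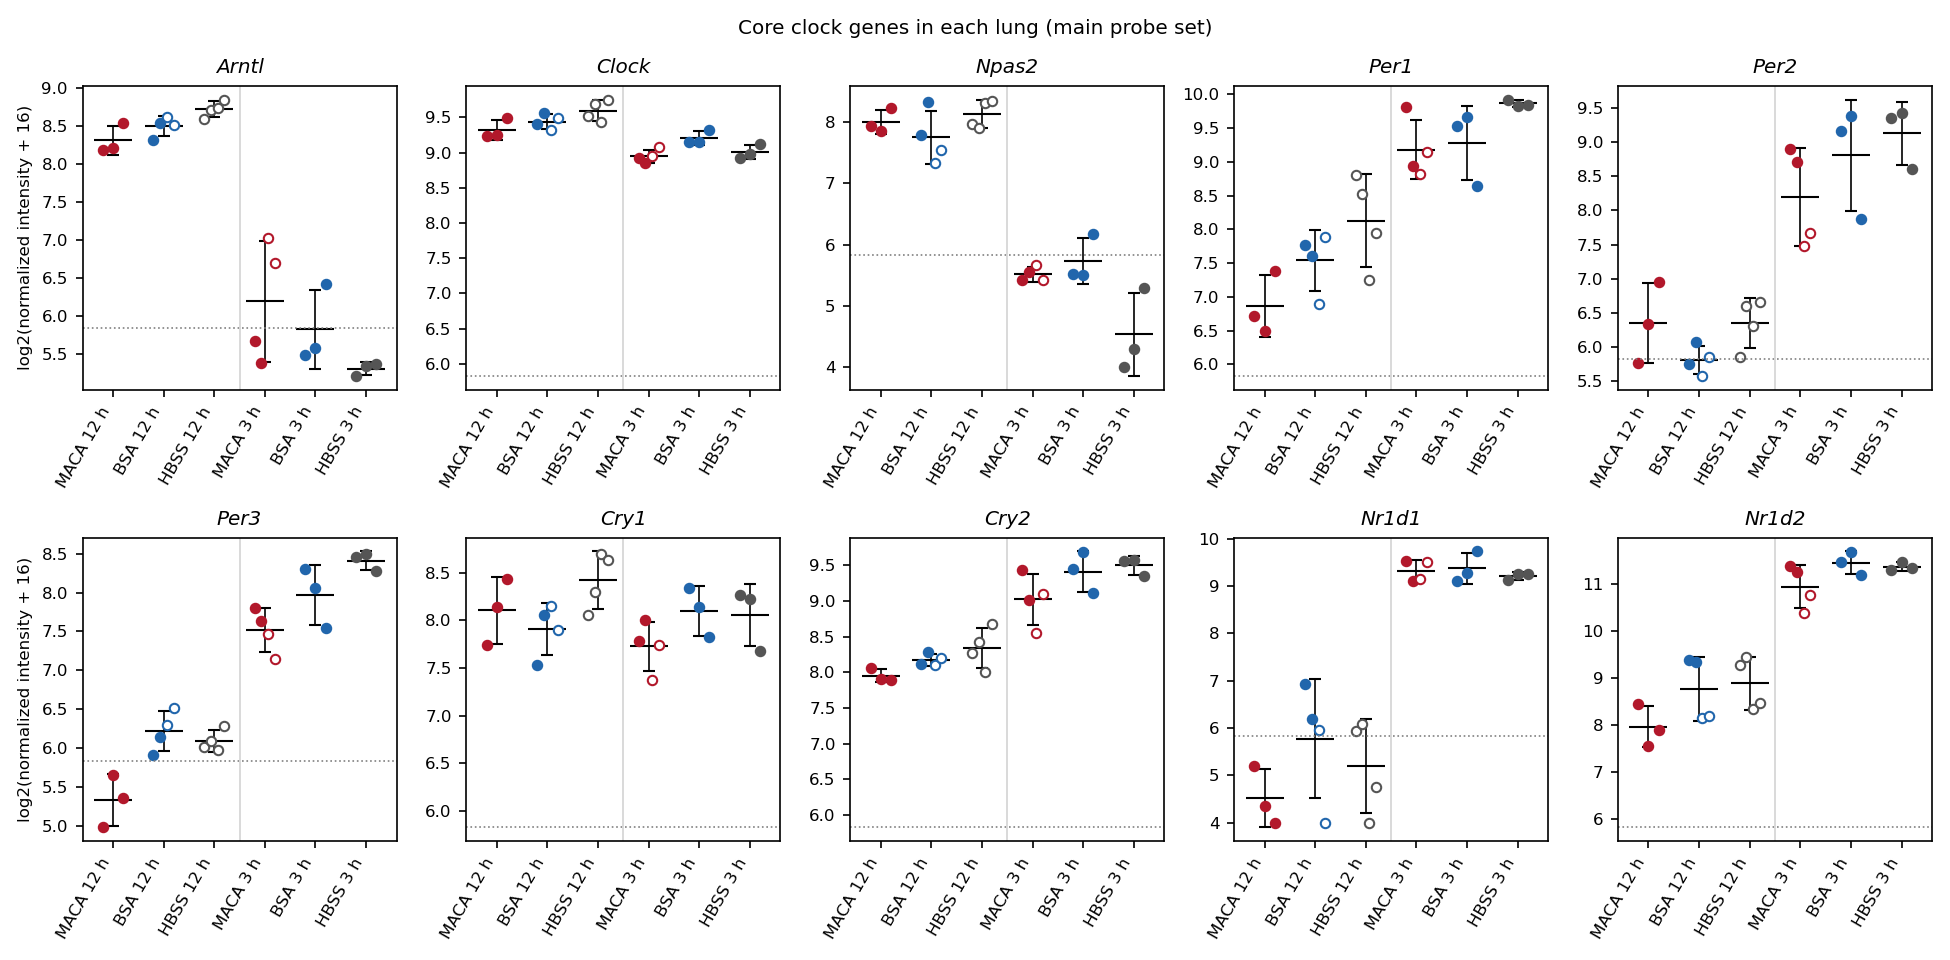
Levels of the 10 clock genes in each lung. The y axis is log2(normalized intensity + 16), points are single lungs (filled for the high technical set, open for the low set), bars are the group mean ± SD, and the dotted line is the noise level of 5.83. Arntl and Npas2 lie higher in the 12 h groups on the left of each panel, while Per1, Per2, Per3, Cry2, Nr1d1 and Nr1d2 lie lower there.

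Arntl encodes the partner that CLOCK and NPAS2 need. After MACA it read 8.19, 8.20 and 8.53 at 12 h, against 5.66, 5.37, 7.03 and 6.70 at 3 h. After BSA it read 8.31, 8.54, 8.61 and 8.51 at 12 h, against 5.48, 5.57 and 6.41 at 3 h. After HBSS it read 8.59, 8.70, 8.74 and 8.84 at 12 h, against 5.21, 5.33 and 5.36 at 3 h. Every 12 h lung was above every 3 h lung, and all 3 HBSS 3 h lungs, but only some of the other 3 h lungs, were within the noise. The log2 fold was 2.12 ± 0.31 after MACA (SE, limma adjusted p = 0.000522) and 2.67 ± 0.31 after BSA (adjusted p = 0.000203). After HBSS Arntl was at least 7.39-fold higher (limma adjusted p = 1.37e-05). That bound takes no account of the technical set, with which as a term the log2 fold was 2.67 (adjusted p = 0.000408), below the bound, against a fitted 3.42 without it. Within the high set the log2 fold after MACA was 2.79 (adjusted p = 0.00122). The change after BSA was the second highest of all 22626 probe sets.

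Npas2, the relative of Clock, had a like profile. After MACA it stood at 7.94, 7.86 and 8.24 at 12 h, against 5.42, 5.54, 5.67 and 5.42 at 3 h. After BSA it stood at 7.79, 8.34, 7.34 and 7.54 at 12 h, against 5.53, 5.51 and 6.17 at 3 h. After HBSS it stood at 7.98, 7.91, 8.32 and 8.36 at 12 h, against 4.00, 4.29 and 5.29 at 3 h, 4.00 being an intensity of 0. All 11 of the 12 h lungs were above noise, and of the 3 h lungs only BSA replicate 3 was. Npas2 was at least 4.53-fold higher at 12 h after MACA (limma adjusted p = 4.94e-05) and at least 4.95-fold higher after HBSS (adjusted p = 1.62e-06). After BSA the log2 fold was 2.02 ± 0.27 (adjusted p = 0.00089). The dimmer Npas2 probe set, under noise in every 3 h lung, read 5.85 to 6.67 at 12 h and passed after each agent in the same direction.

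Clock had the smallest folds of the activators. Its level was 9.24, 9.25 and 9.49 at 12 h after MACA, against 8.92, 8.85, 8.95 and 9.07 at 3 h. It was 9.40, 9.56, 9.32 and 9.49 at 12 h after BSA, against 9.15, 9.15 and 9.33 at 3 h. It was 9.51, 9.69, 9.44 and 9.75 at 12 h after HBSS, against 8.92, 8.98 and 9.13 at 3 h. The times did not overlap after MACA or HBSS and just overlapped after BSA. The log2 fold was 0.38 ± 0.09 after MACA (SE, limma adjusted p = 0.016), 0.23 ± 0.09 after BSA (adjusted p = 0.167) and 0.59 ± 0.09 after HBSS (adjusted p = 0.00172). The other Clock probe set was called after BSA (log2 fold 0.56, limma adjusted p = 0.0273) and HBSS (0.68, adjusted p = 0.00612) but not after MACA (0.19, adjusted p = 0.428). Without MACA 12 h replicate 3 the call of the brighter set after MACA was lost (adjusted p = 0.0892). So the 2 probe sets of Clock gave the same sign after every agent and different calls after MACA and BSA.

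Among the repressors, Per1 is the Period gene that also answers acutely to glucocorticoids and cAMP. In MACA lungs it read 6.72, 6.50 and 7.38 at 12 h, against 9.81, 8.94, 8.83 and 9.14 at 3 h. In BSA lungs it read 7.77, 7.61, 6.89 and 7.89 at 12 h, against 9.54, 9.66 and 8.65 at 3 h. In HBSS lungs it read 8.80, 8.53, 7.25 and 7.95 at 12 h, against 9.92, 9.83 and 9.84 at 3 h. Per1 kept a level above noise in all 21 lungs, and no 12 h lung reached the 3 h lungs of its own agent. Its log2 fold was -2.31 ± 0.36 after MACA (SE, limma adjusted p = 0.000908), -1.74 ± 0.36 after BSA (adjusted p = 0.0162) and -1.73 ± 0.36 after HBSS (adjusted p = 0.0103). Without BSA 3 h replicate 1 or replicate 2 the BSA call was lost (adjusted p up to 0.0973), and with the technical set as a term the HBSS call was lost (log2 fold -1.39, adjusted p = 0.0869).

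Per2 encodes the Period protein most needed for a lasting rhythm in mice. MACA lungs had 5.78, 6.34 and 6.95 at 12 h, against 8.90, 8.71, 7.49 and 7.67 at 3 h. BSA lungs had 5.75, 6.07, 5.58 and 5.86 at 12 h, against 9.15, 9.38 and 7.87 at 3 h. HBSS lungs had 5.86, 6.60, 6.30 and 6.65 at 12 h, against 9.35, 9.42 and 8.60 at 3 h. The 12 h lungs ran from within the noise to 6.95. The 3 h groups were wide, with SDs of 0.72 after MACA, 0.81 after BSA and 0.46 after HBSS. For Per2 the log2 fold was -1.84 ± 0.40 after MACA (limma adjusted p = 0.00891), -2.98 ± 0.40 after BSA (adjusted p = 0.00089) and -2.77 ± 0.40 after HBSS (adjusted p = 0.00113). Within the high set the MACA value was -2.45 (adjusted p = 0.0231), and with that set as a term the HBSS value was -2.06 (adjusted p = 0.0172). The dimmer Per2 probe set, at 5.97 to 7.62 at 3 h, was under noise in every 12 h lung. By that set Per2 was at least 1.74-fold lower at 12 h after MACA, at least 1.77-fold lower after BSA and at least 2.77-fold lower after HBSS, and each passed the threshold.

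Per3 is the Period gene whose loss alters the rhythm of mice least. It stood at 4.99, 5.66 and 5.36 at 12 h after MACA, against 7.80, 7.64, 7.47 and 7.14 at 3 h. After BSA its levels were 5.91, 6.14, 6.29 and 6.52 at 12 h, against 8.30, 8.06 and 7.54 at 3 h. After HBSS they were 6.01, 6.09, 5.98 and 6.29 at 12 h, against 8.46, 8.50 and 8.27 at 3 h. All 3 MACA 12 h lungs were within the noise, and the other 18 lungs were above it. Per3 was at least 3.21-fold lower at 12 h after MACA (limma adjusted p = 1.07e-05). It fell by 1.75 on the log2 scale at 12 h after BSA (adjusted p = 0.000161) and fell by 2.32 after HBSS (adjusted p = 7.21e-06). Its other probe sets were dim: one was above noise in 5 of 21 lungs and the other in 0, so they give little on Per3. The first of those was called lower at 12 h after MACA (adjusted p = 0.0177) and neither was called after BSA or HBSS.

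Cry1 and Cry2 encode the cryptochromes, the strongest inhibitors of the activator pair. Cry2 was 8.06, 7.91 and 7.89 at 12 h in MACA lungs, against 9.43, 9.01, 8.56 and 9.09 at 3 h. In BSA lungs Cry2 was 8.12, 8.29, 8.10 and 8.20 at 12 h, against 9.44, 9.68 and 9.11 at 3 h. In HBSS lungs Cry2 was 8.27, 8.42, 8.00 and 8.68 at 12 h, against 9.56, 9.57 and 9.35 at 3 h. Cry2 thus had no overlap between times after any agent. Its log2 fold was -1.07 after MACA (limma adjusted p = 0.00144), -1.23 after BSA (adjusted p = 0.00147) and -1.15 after HBSS (adjusted p = 0.00172), each with an SE of 0.18. Cry1 was the member that was called after no agent. It was 7.74, 8.14 and 8.43 at 12 h after MACA, against 7.79, 8.00, 7.38 and 7.75 at 3 h. It was 7.54, 8.05, 8.15 and 7.90 at 12 h after BSA, against 8.34, 8.14 and 7.82 at 3 h. It was 8.06, 8.30, 8.70 and 8.64 at 12 h after HBSS, against 8.27, 8.22 and 7.68 at 3 h. The Cry1 times overlapped after every agent, with a 95% interval of the log2 difference of -0.08 to 0.83 after MACA, -0.65 to 0.26 after BSA and -0.09 to 0.82 after HBSS.

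Nr1d1, the REV-ERB alpha receptor, had the largest fitted change of the 10 after each agent in the fit without the technical set. It had 5.20, 4.36 and 4.00 at 12 h after MACA, against 9.52, 9.11, 9.15 and 9.52 at 3 h. It had 6.94, 6.19, 5.97 and 4.00 at 12 h after BSA, against 9.11, 9.29 and 9.74 at 3 h. It had 5.93, 6.09, 4.00 and 4.76 at 12 h after HBSS, against 9.12, 9.26 and 9.26 at 3 h. At 3 h the 10 lungs lay close together, and at 12 h they ran from within the noise to 6.94. Nr1d1 was at least 11.3-fold lower at 12 h after MACA (limma adjusted p = 8.27e-05). The log2 fold was -3.60 ± 0.56 after BSA (adjusted p = 0.00268) and -4.02 ± 0.56 after HBSS (adjusted p = 0.000916), with part of each 12 h group within the noise. Once the set was a term, the log2 fold after HBSS was -3.24 (adjusted p = 0.0125), smaller in size than that of Npas2 (3.89). Within the high set the Nr1d1 value after BSA was -2.81 (adjusted p = 0.0141), against -2.89 for Per2.

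Nr1d2, the REV-ERB beta receptor, fell too and stayed above noise in all 21 lungs. After MACA its levels were 8.43, 7.56 and 7.90 at 12 h, against 11.37, 11.25, 10.37 and 10.75 at 3 h. After BSA they were 9.37, 9.33, 8.16 and 8.18 at 12 h, against 11.46, 11.67 and 11.18 at 3 h. After HBSS they were 9.28, 9.45, 8.34 and 8.46 at 12 h, against 11.29, 11.46 and 11.32 at 3 h. The 12 h lungs of BSA and of HBSS each fell into a higher pair, replicates 1 and 2, and a lower pair, replicates 3 and 4. In BSA lungs the lower pair was also the low technical set, whereas all 4 HBSS 12 h lungs were in that set. The log2 fold was -2.97 ± 0.36 after MACA (limma adjusted p = 9.76e-05), -2.68 ± 0.36 after BSA (adjusted p = 0.000823) and -2.47 ± 0.36 after HBSS (adjusted p = 0.00107). Once the set was a term, the HBSS value was -1.51 (adjusted p = 0.0126), and within the high set the BSA value was -2.09 (adjusted p = 0.00694). The dimmer Nr1d2 probe set gave the same direction, at least 4.29-fold lower after MACA, at least 4.71-fold lower after BSA and a log2 fold of -2.67 after HBSS.

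**Figure D2:**
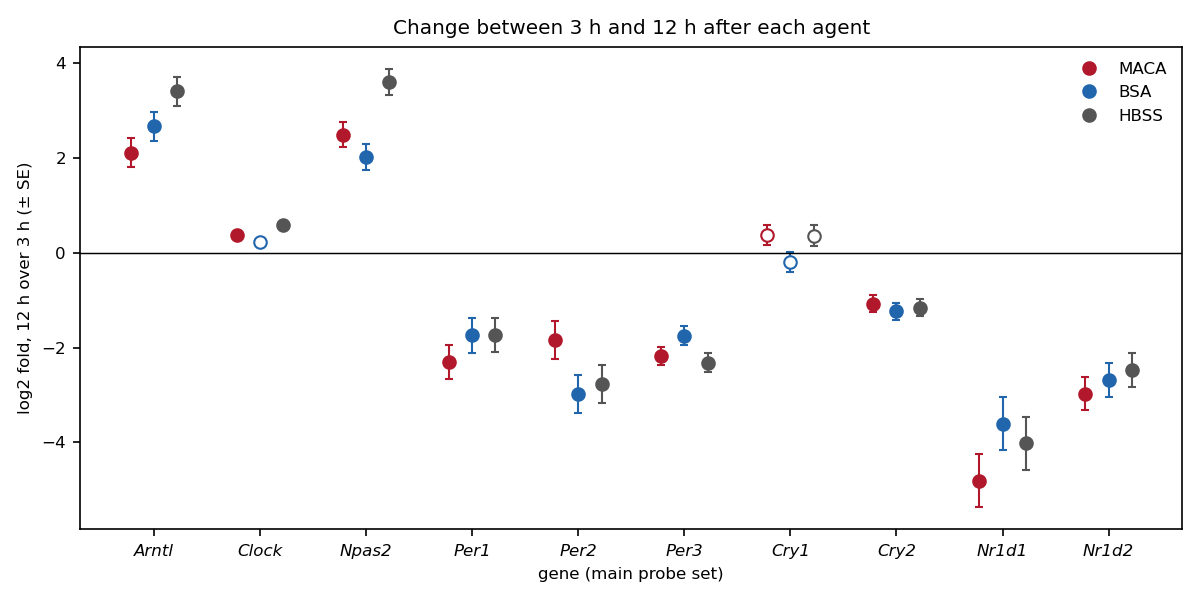
Log2 fold at 12 h over 3 h for each clock gene (x axis) after MACA, BSA and HBSS, with SE bars. Filled points passed limma's adjusted threshold. Arntl and Npas2 lie above 0 and Nr1d1 lowest for every agent, with the Cry1 points open. Folds that involve levels within the noise, such as that of Nr1d1 after MACA, depend on the constant added before log2.

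Over the 6 group means, Nr1d2 had a range of 3.47 on the log2 scale, and 37 of 22626 probe sets had a larger one. Per2 ranged over 3.31 and Per1 over 3.00, with 44 and 68 probe sets above them. For Nr1d1, Npas2, Arntl and Per3 the lowest group lay wholly within the noise, so no range is given. Cry2 ranged over 1.54, Cry1 over 0.70 and Clock over 0.65, where the median over all probe sets was 0.47. These ranges describe size and carry no test.

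The order of the group means showed where agents overlapped. Arntl was highest in HBSS 12 h lungs (8.72 ± 0.10, SD), then BSA 12 h (8.49 ± 0.13) and MACA 12 h (8.31 ± 0.20), each overlapping the next. Below these came MACA 3 h (6.19 ± 0.80) and BSA 3 h (5.82 ± 0.52), which overlapped, and HBSS 3 h (5.30 ± 0.08). Per1 ran the other way round between times and among the 3 h groups, but at 12 h its means had the same agent order as Arntl. It was highest in HBSS 3 h lungs (9.86 ± 0.05), with BSA 3 h (9.28 ± 0.55) and MACA 3 h (9.18 ± 0.44) overlapping. Its 12 h means were 8.13 ± 0.69 in HBSS lungs, 7.54 ± 0.45 in BSA lungs and 6.87 ± 0.46 in MACA lungs, each overlapping the next. Between times no neighbours overlapped for Arntl, Npas2, Per1, Per2, Per3, Nr1d1 or Nr1d2. In Per1, however, 2 groups that are not neighbours did overlap. BSA 3 h replicate 3, at 8.65, was under HBSS 12 h replicate 1, at 8.80. For Cry2, MACA 3 h lungs (9.02 ± 0.36) overlapped HBSS 12 h lungs (8.34 ± 0.28), and for Clock, MACA 12 h lungs (9.33 ± 0.14) overlapped BSA 3 h lungs (9.21 ± 0.10). For Cry1 every neighbour overlapped.

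Fewer clock genes were called between agents than between times. The comparisons of MACA with HBSS and with BSA share the MACA lungs, and those of MACA and of BSA with HBSS share the HBSS lungs, so they are given side by side. For MACA against HBSS at 12 h, 3 of 10 genes passed, all lower after MACA (17% of all probe sets passed). For MACA against BSA at 12 h, 1 of 10 passed, lower after MACA (7.11%). At 3 h, 2 of 10 passed for MACA against HBSS, 1 in each direction (6.13%), and 0 of 10 for MACA against BSA (4.66%), where 3 had an unadjusted p under 0.05. BSA against HBSS gave 0 of 10 by limma at 12 h (1.18%) and 0 of 10 at 3 h (0.15%), with 1 gene and 2 genes at an unadjusted p under 0.05. MACA and HBSS lungs did not overlap in 2 of 10 genes at 12 h, both lower after MACA (30.1% of all probe sets had no overlap), and in 4 of 10 at 3 h, 2 in each direction (19%). Counts of 1 to 3 members are too small to be read against the shares of all probe sets. The summed intensity of 7 genes listed as neutrophil markers, Il1b and Mmp9 among them, moved with the agent. It was 5189 to 9733 in MACA 12 h lungs, against 2692 to 7589 in BSA 12 h and 993 to 2958 in HBSS 12 h lungs. At 3 h it was 9407 to 14397 after MACA, against 1082 to 3903 after BSA and 920 to 3884 after HBSS, and all 7 markers were above noise in every MACA lung. At 12 h the cardiac markers (4 of 4 above noise in every lung) summed to 4633 to 6059 in MACA lungs, against 8689 to 11182 in BSA and 7674 to 12072 in HBSS lungs. The 2 measured fat markers summed to 41.9 to 93.7 in MACA 12 h lungs, with Adipoq under noise, against 407 to 4800 in BSA 12 h and 622 to 2038 in HBSS 12 h lungs. The 4 measured macrophage and monocyte markers summed to 4036 to 4828 in MACA 12 h lungs, against 3019 to 3959 in BSA 12 h and 2772 to 3112 in HBSS 12 h lungs, where Marco was under noise. The part of these cells in the differences between agents was not tested.

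Per3 was called in 3 of the 6 comparisons between agents. At 12 h it was at least 1.2-fold lower in MACA than in HBSS lungs (fitted log2 fold -0.76 ± 0.20, limma adjusted p = 0.0142) and at least 1.31-fold lower than in BSA lungs (fitted log2 fold -0.88 ± 0.20, adjusted p = 0.0131). At 3 h its log2 fold against HBSS was -0.89 ± 0.20 (limma adjusted p = 0.0124), and MACA lungs at 7.14 to 7.80 did not overlap HBSS lungs at 8.27 to 8.50. Against BSA at 3 h it was -0.45 ± 0.20 (adjusted p = 0.197), with overlap. Within the high set the 3 h difference from HBSS was -0.69 (adjusted p = 0.168) and the 12 h difference from BSA was -0.69 (adjusted p = 0.177). Without MACA 12 h replicate 1, both 12 h calls were lost (adjusted p = 0.0787 against HBSS and 0.065 against BSA). Adding the technical set to the fit gave an adjusted p of 0.0729 for MACA against HBSS at 12 h and 0.0264 at 3 h. A Per3 probe set that was under noise in all 21 lungs was called higher in MACA than in HBSS lungs at 12 h (limma adjusted p = 0.0355), and no fold is given for it.

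Per1 at 12 h was lower after MACA than after HBSS, at 6.72, 6.50 and 7.38, against 8.80, 8.53, 7.25 and 7.95. The groups overlapped through HBSS replicate 3, the lowest of its group. Its log2 fold was -1.26 ± 0.36 (limma adjusted p = 0.024), and with the technical set as a term it was -1.61 (adjusted p = 0.0396). Leaving out MACA 12 h replicate 1 or 2 or HBSS 12 h replicate 1 or 2 ended the call (adjusted p up to 0.121). Against BSA at 12 h the Per1 difference was -0.67 (95% interval -1.43 to 0.09), and at 3 h that against HBSS was -0.69 (-1.45 to 0.08).

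Clock at 12 h was lower after MACA than after HBSS by its brighter probe set, with overlap (log2 fold -0.27 ± 0.09, limma adjusted p = 0.0484), and this call was lost in 14 of 21 fits that left out 1 array. By the other probe set MACA 12 h lungs read 8.44, 8.34 and 8.69, against 8.89, 8.97, 8.98 and 9.26 in BSA and 8.93, 8.95, 8.90 and 9.04 in HBSS 12 h lungs. By that set no MACA lung reached a BSA or HBSS lung. It gave a log2 fold of -0.53 ± 0.13 against BSA (limma adjusted p = 0.0212) and -0.46 ± 0.13 against HBSS (adjusted p = 0.0217). The brighter set gave -0.11 against BSA (95% interval -0.31 to 0.08), so the probe sets differed in that call.

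Npas2 passed for MACA against HBSS at 3 h (limma adjusted p = 0.0422) although every lung of both groups was within the noise, so no fold is given. BSA 3 h lungs were at 5.53, 5.51 and 6.17, and their difference from HBSS did not pass (adjusted p = 0.134). Arntl at 3 h was higher in each of the 4 MACA lungs (5.37 to 7.03) than in the 3 HBSS lungs (5.21 to 5.36), and the difference did not pass (adjusted p = 0.0996). Within the high set the MACA 3 h lungs, at 5.66 and 5.37, were within the noise like the HBSS lungs, so no difference is given there. At 12 h Arntl lay lower in each MACA lung (8.19 to 8.53) than in each HBSS lung (8.59 to 8.84), and this did not pass either (log2 difference -0.41, 95% interval -1.06 to 0.24). All of those MACA lungs were in the high set and all of those HBSS lungs in the low set, and with the set as a term the sign turned (0.33, adjusted p = 0.565).

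The calls of the REV-ERB genes between agents depended on the technical set. At 12 h the Nr1d2 difference was -0.92 ± 0.36 for MACA against HBSS (limma adjusted p = 0.0884) and -0.79 ± 0.36 for MACA against BSA (adjusted p = 0.197). Adding the technical set to the fit gave -1.88 (limma adjusted p = 0.00322) and -1.28 (adjusted p = 0.0198). MACA 12 h and HBSS 12 h lungs share no set, so agent and set cannot be told apart there. The term rests on MACA 3 h and BSA 12 h lungs, in which the low set is also replicates 3 and 4. HBSS 12 h lungs had a like Nr1d2 split by replicate within 1 set. Within the high set, MACA against BSA gave -1.38 for Nr1d2 (limma adjusted p = 0.022) and a fitted -2.05 for Nr1d1 (adjusted p = 0.0263), with all 3 Nr1d1 levels of MACA within the noise. There the MACA lungs at 8.43, 7.56 and 7.90 were set against BSA 12 h replicates 1 and 2, at 9.37 and 9.33. BSA 12 h replicates 3 and 4, left out there, stood at 8.16 and 8.18 in Nr1d2, inside the range of the MACA lungs. In Nr1d1 those replicates stood at 5.97 and 4.00. With the set as a term Nr1d1 did not pass at 12 h. For MACA its value was -1.65 against BSA (limma adjusted p = 0.14) and -1.46 against HBSS (adjusted p = 0.21). At 3 h neither gene differed beyond its interval, which ran from -1.08 to 1.30 for Nr1d1 and from -1.17 to 0.33 for Nr1d2 for MACA against HBSS.

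The change with time itself was compared between agents. For the time change after MACA against that after HBSS, 0 of 10 members passed limma's threshold (2.92% of all probe sets passed), and 2 had an unadjusted p under 0.05. These were Arntl (difference of log2 folds -1.30, 95% interval -2.22 to -0.38, adjusted p = 0.114), and Npas2 (-1.11, -1.93 to -0.30, adjusted p = 0.127). Both were within the noise in HBSS 3 h lungs, which makes their fitted changes depend on the constant added. Npas2 was within the noise in every MACA 3 h lung too, so both of its 3 h levels in this difference were. Once the technical set was added to the fit, the Arntl difference was -0.19 (adjusted p = 0.891) and that of Npas2 was -1.54 (adjusted p = 0.128). Under the same term the difference for Nr1d2 was -1.94 (adjusted p = 0.0574), against -0.49 (adjusted p = 0.661) without it. Against BSA, 0 of 10 passed (0.468% of all probe sets), and 0 had an unadjusted p under 0.05.

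**Figure D3:**
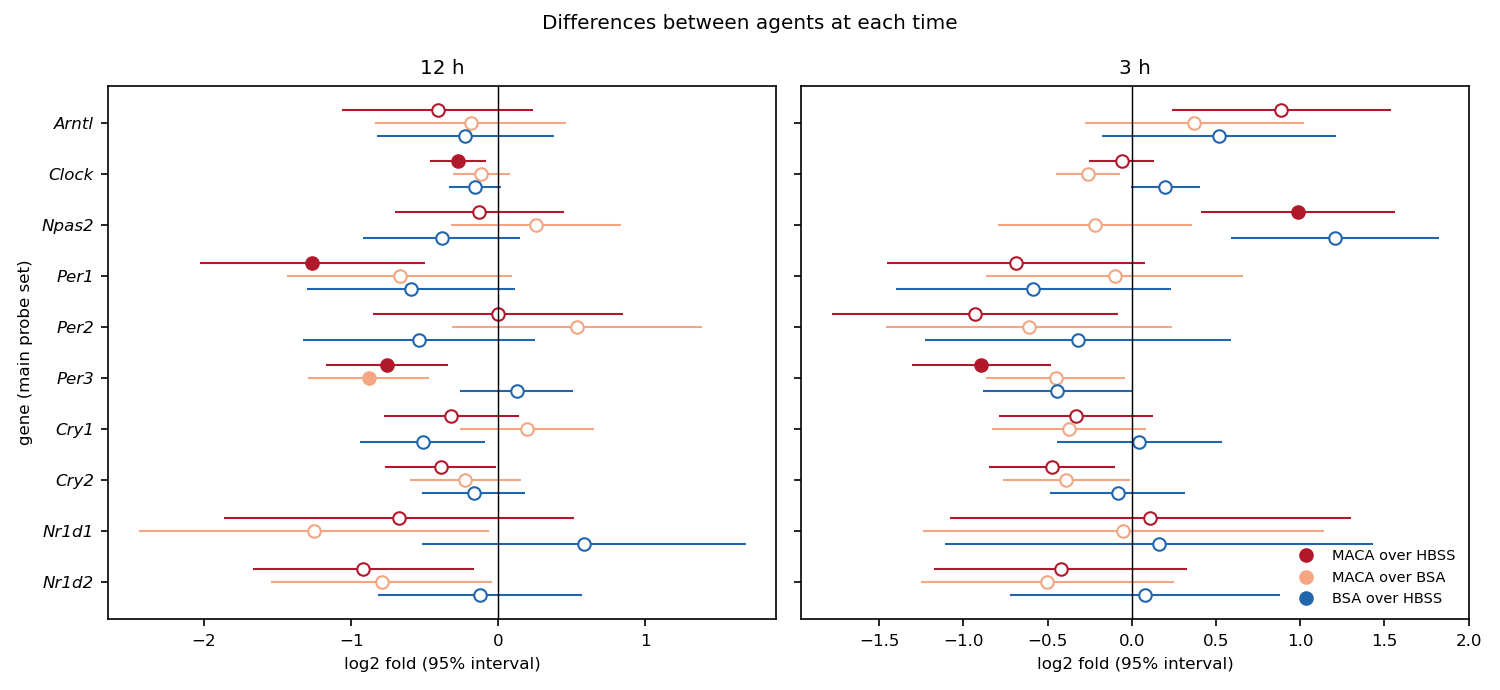
Log2 fold between agents at 12 h and 3 h (x axis, with 95% intervals) for each clock gene (y axis). Filled points passed limma's adjusted threshold: Per1, Per3 and Clock at 12 h, and Per3 and Npas2 at 3 h, the last with both groups within the noise. Most intervals cross 0.

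Single lungs departed from their groups in several clock genes at once. Each lung was set against the mean of the other lungs of its group, and the genes that deviated in the direction of the 12 h minus 3 h change, averaged over the agents, were counted. Among 3 h lungs, MACA replicate 3 deviated that way in 9 of 10 genes and replicate 4 in 7, against 1 in replicate 1 and 5 in replicate 2. BSA 3 h replicate 3 did so in 8 genes, against 2 in each of the other lungs. HBSS 3 h replicate 3 did so in 8, against 3 in each of the others. At 12 h, HBSS replicate 3 did so in 9 and replicate 4 in 7, against 3 in replicate 1 and 2 in replicate 2. MACA 12 h lungs had 3, 6 and 7 genes, and BSA 12 h lungs 4, 5, 6 and 4. In each of the 6 groups the lung with the most genes was the one numbered 3, and the labels do not say what the numbers share. MACA 3 h replicates 3 and 4 were also in the low technical set, while BSA 3 h replicate 3 and HBSS 3 h replicate 3 were in the high set like the rest of their groups. These counts have no test, and the genes are not independent of each other.

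Some of these departures were as large as the differences between agents. Arntl in MACA 3 h replicate 3 differed by 1.12 from the mean of the other MACA 3 h lungs on the log2 scale, and Per2 by -0.94. Per2 in BSA 3 h replicate 3 differed by -1.39 from the other BSA 3 h lungs, Per1 by -0.95 and Arntl by 0.89. Per2 in HBSS 3 h replicate 3 differed by -0.79. Nr1d2 in HBSS 12 h replicates 3 and 4 differed by -0.72 and -0.56, and in BSA 12 h replicates 3 and 4 by -0.80 and -0.77. Leaving out any 1 lung kept the number of members called between times at 8 to 9 after MACA, 7 to 8 after BSA and 9 after HBSS.

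**Figure D4:**
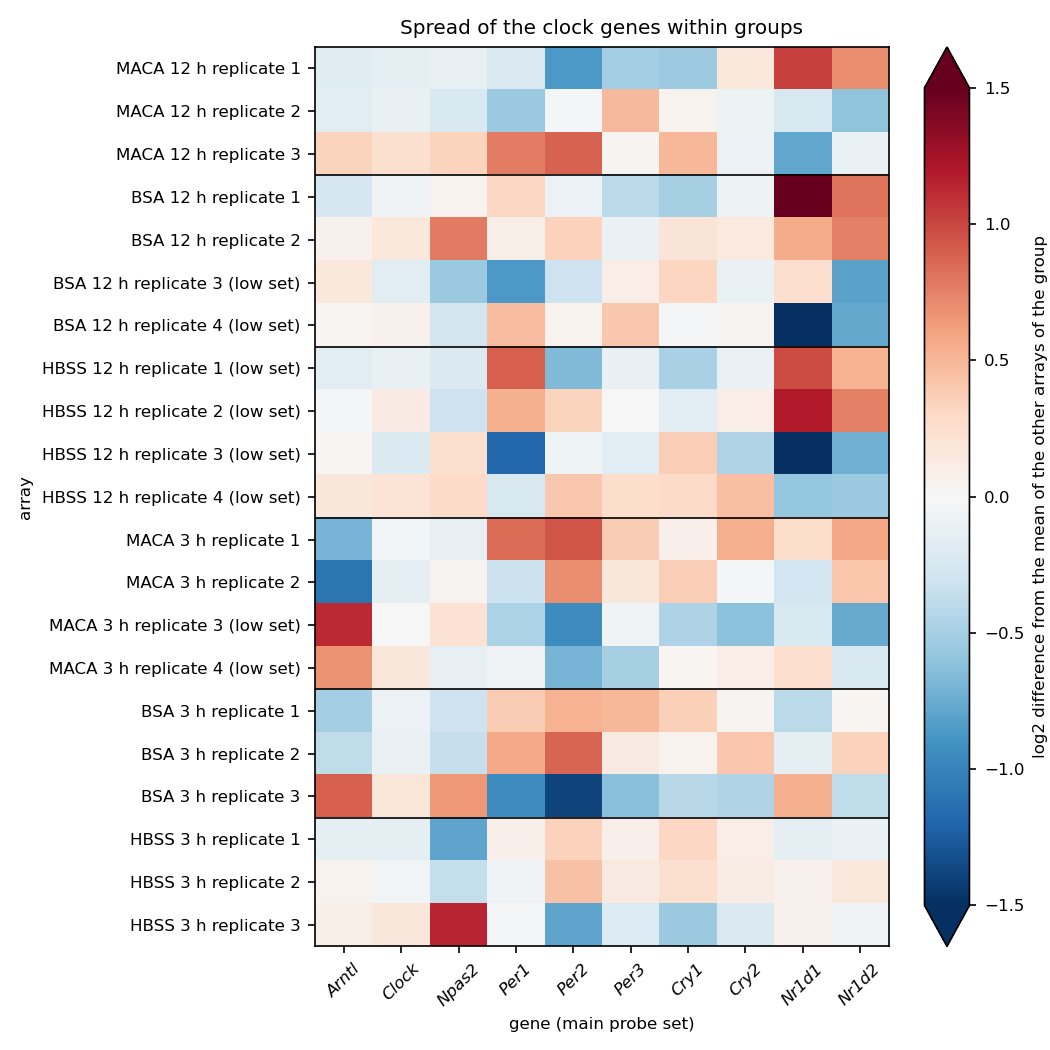
Log2 difference of each lung (rows) from the mean of the other lungs of its group for each clock gene (columns). Colours reach their ends at the limits of the bar. MACA 3 h replicate 3, BSA 3 h replicate 3 and HBSS 3 h replicate 3 are low in Per2, and in BSA 12 h and HBSS 12 h lungs Nr1d2 is high in replicates 1 and 2 and low in replicates 3 and 4.

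Genes downstream of the clock were followed in a list of 7 clock-controlled factors, 6 of them measured. Between times 4 of 6 were called after MACA, all lower at 12 h, and 5 of 6 after BSA and after HBSS, 4 lower and 1 higher each, where 9.12%, 3.41% and 6.93% of all probe sets passed in those 3 comparisons. The median log2 change of the list was -1.31 after MACA, -1.50 after BSA and -1.63 after HBSS, against 0.00 over all probe sets in each, and -1.21 after MACA with Dbp and Hlf at the least fold they allow. Dbp, a PAR bZIP activator that binds the D-box, was 5.44, 5.39 and 5.77 at 12 h after MACA, against 11.16, 11.04, 10.40 and 10.03 at 3 h. It was at least 28.4-fold lower at 12 h after MACA (limma adjusted p = 4.84e-08), and its log2 fold was -5.12 after BSA (adjusted p = 4.88e-08) and -5.22 after HBSS (adjusted p = 3.67e-08). Its relatives Tef and Hlf fell as well. The log2 fold of Tef was -2.02 after MACA, -1.71 after BSA and -1.89 after HBSS. Hlf was at least 3.26-fold lower at 12 h after MACA, and its log2 fold was -2.12 after BSA and -2.50 after HBSS. At 3 h Dbp and Hlf were also lowest in the lungs that departed in the core genes. Hlf read 7.28 and 7.19 in MACA 3 h replicates 3 and 4, 7.37 in BSA 3 h replicate 3 and 7.90 in HBSS 3 h replicate 3. The other 3 h lungs read 7.83 and 7.85 after MACA, 8.46 and 8.43 after BSA, and 8.99 and 8.60 after HBSS.

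Nfil3, the repressor that competes with Dbp for the D-box, went the other way. It was higher at 12 h after BSA (log2 fold 0.86, limma adjusted p = 0.0353) and HBSS (1.27, adjusted p = 0.00296), and after MACA the value was 0.63 (adjusted p = 0.0773). At 3 h Nfil3 read 7.08, 7.45, 6.73 and 7.70 in MACA lungs, against 6.23, 5.97 and 5.92 in HBSS lungs. It rose there with a log2 fold of 1.20 ± 0.21 (limma adjusted p = 0.00334). Bhlhe40, a repressor that acts on E-boxes, was higher after MACA than after HBSS at 12 h (log2 fold 1.46, limma adjusted p = 0.000111) and at 3 h (0.80, adjusted p = 0.0126), and higher than after BSA at 12 h (1.03, adjusted p = 0.00286). No MACA lung overlapped an HBSS lung in Bhlhe40 or Nfil3 at either time. Of all probe sets, 30.1% had no overlap in that comparison at 12 h and 19% at 3 h. Nfil3 was not called at 12 h, when MACA and HBSS lungs share no technical set. Between times Bhlhe40 fell after every agent, with log2 folds of -0.70 after MACA, -1.29 after BSA and -1.37 after HBSS. Tef was lower at 12 h after MACA than after HBSS (log2 fold -0.47, adjusted p = 0.0217) and than after BSA (-0.45, adjusted p = 0.0481). For MACA against HBSS 2 of 6 of the list were called at 12 h and 2 of 6 at 3 h, where 17% and 6.13% of all probe sets passed.

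**Figure D5:**
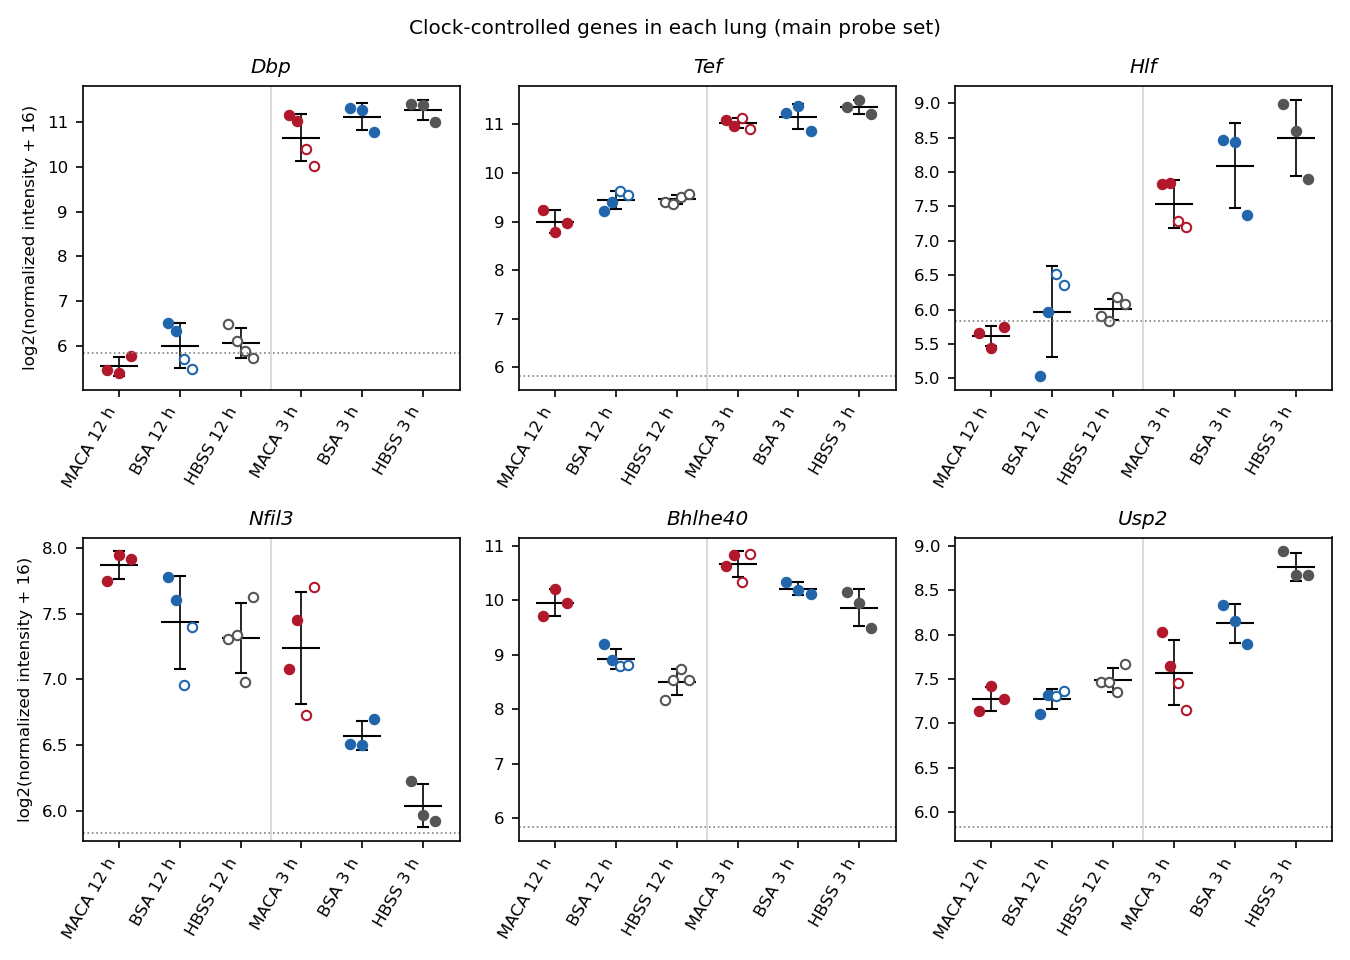
Levels of 5 clock-controlled factors and of Usp2 in each lung, drawn as for the core genes: points are lungs (open for the low technical set), bars the mean ± SD, and the dotted line the noise level. Dbp, Tef and Hlf are lower in the 12 h groups on the left, and Bhlhe40 is higher in MACA than in HBSS lungs at both times.

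Of 21 regulators of the clock proteins (kinases, ubiquitin ligases, deacetylases, ROR receptors), 15 were measured. Between times 3 were called after MACA, 1 after BSA and 3 after HBSS, all lower at 12 h, where 9.12%, 3.41% and 6.93% of all probe sets passed. The 3 after MACA were Rora (log2 fold -0.59), the ubiquitin ligase scaffold Cul1 (-0.45) and the kinase Csnk1e (-0.38), which phosphorylates PER proteins. After HBSS they were Usp2, Csnk1e (-0.33) and Nono (-0.30), the last a protein that binds PER. Usp2, a clock-regulated deubiquitinase, was lower at 12 h after BSA (log2 fold -0.85, limma adjusted p = 0.00963) and HBSS (-1.27, adjusted p = 0.000435). At 3 h Usp2 read 8.03, 7.64, 7.46 and 7.16 after MACA, against 8.94, 8.68 and 8.67 after HBSS. Its log2 fold there was -1.19 (limma adjusted p = 0.000351), and MACA 12 h lungs, at 7.14 to 7.42, overlapped MACA 3 h lungs in this gene. The difference of its time change between MACA and HBSS passed (0.98, limma adjusted p = 0.0286), as did that of Nono (0.49, adjusted p = 0.0252), 2 of 15 where 2.92% of all probe sets passed. Sirt1, a deacetylase, was lower after MACA than after HBSS at 3 h (-0.58, adjusted p = 0.0423). Rora, which activates Arntl through the same element that REV-ERB proteins bind, was lower at 12 h after MACA than after HBSS (log2 fold -0.56, limma adjusted p = 0.0118) and BSA (-0.62, adjusted p = 0.0145). Timeless and Nono were higher at 12 h after MACA than after HBSS (log2 folds 0.71 and 0.46, limma adjusted p = 0.00071 and 0.00106). In all, 3 of 15 were called for MACA against HBSS at 12 h and 2 of 15 at 3 h, where 17% and 6.13% of all probe sets passed. For MACA against BSA, Rora was the 1 of 15 called at 12 h (7.11%), and 2 of 15 were called at 3 h (4.66%), Timeless being higher (log2 fold 0.53) and the F-box protein gene Fbxw11 lower (-0.41).

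Per1 also stands in a list of 10 glucocorticoid-responsive genes. Between times 7 of the 10 were called after MACA, 6 after BSA and 4 after HBSS, all lower at 12 h. In those comparisons 9.12%, 3.41% and 6.93% of all probe sets passed. For MACA against HBSS 6 of those 10 were lower at 12 h, with Per1, Klf15 (log2 fold -1.56, limma adjusted p = 0.00195), Tsc22d3 (-1.38, adjusted p = 0.00409), Errfi1 (-0.99), Klf9 (-0.82) and Dusp1 (-0.56), where 17% of all probe sets passed in either direction. At 3 h 1 of 10 was lower, Klf15 (-1.77, adjusted p = 0.00178). MACA 12 h and HBSS 12 h lungs share no technical set, so agent and set cannot be told apart there. For MACA against BSA, 3 of 10 were called at 12 h, all lower (7.11% of all probe sets), and 0 of 10 at 3 h (4.66%). BSA against HBSS gave 0 of 10 at 12 h (1.18%) and 0 of 10 at 3 h (0.15%). Of 8 cAMP-responsive and immediate early genes, 5 were higher after MACA than after HBSS at 3 h (Fos, Fosb, Egr1, Junb and Ier2) and 1, Nr4a2, was lower, where 6.13% of all probe sets passed. Per1, which such signals can induce, was not called there. At 12 h 4 of 8 were called, with Junb higher after MACA (log2 fold 1.48) and Nr4a2 (-1.13), Nr4a1 (-0.88) and Crem (-0.54) lower, where 17% of all probe sets passed. For MACA against BSA, 5 of 8 were called at 3 h, all higher (4.66%), and 2 of 8 at 12 h, 1 in each direction (7.11%).

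The genes with the profile most like a member were taken from 9304 main probe sets, by the root-mean-square difference between the 6 group means, each profile centred on its own mean. The nearest to Arntl were Npas2 (0.251) and Spon2 (0.277), a secreted matrix protein, followed by Agr2 (0.759). The nearest to the mirrored Arntl profile were Per2 (0.254), Zbtb16 (0.317), Hlf (0.368), Upk3b (0.373) and Nr1d2 (0.437). Nearest to Nr1d1 was Dbp (0.599), then Nr1d2 (0.765) and Zbtb16 (0.923). Per1 was nearest to Per3 (0.248), Tef (0.269) and Hlf (0.314), and Per2 to Zbtb16 (0.197), Hlf (0.313) and Map3k6 (0.395). These values describe 6 means, which share arrays and normalization and in part lie within the noise, and carry no test.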

How the data were processed

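Total RNA from whole left lung was hybridised as biotin-labelled cRNA, per the labels' protocols, which call each array a biological replicate. The authors deposited 1 linear intensity for each of 22690 probe sets per array. Between 9.37% and 11.1% of an array's intensities were below 0, and medians differed by up to 3.08 times. No source used here gives the scanner software, the summary method or a scaling.

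Intensities were quantile normalized between the 21 arrays without the 64 control probe sets, set to 0 where below it, and taken as log2(value + 16), so folds understate changes of dim genes. The noise level was an intensity of 40.9 (95th percentile of the size of values below 0). A gene under it in every lung of 1 group has a fold given as at least N-fold, and none where both groups are under it. limma (3.58.1, R 4.3.3) fitted 6 group means with 15 residual degrees of freedom, and p-values were adjusted by Benjamini-Hochberg over 22626 probe sets in each of 11 comparisons. The fit was tested on simulated data. Of the probe sets 20380 had 1 symbol, 691 several and 1555 none, and the brightest of a gene was its main one. All 10 members are named with every probe set, genes of the clock-factor and regulator lists where they passed, and like genes by the measure in the text. The members and lists were chosen with earlier results of these data known. Figures used python 3.11.15 and matplotlib 3.10.9. Alternatives were no or median scaling, a constant of 64, a filter on dim probe sets, 1 or the second probe set per gene, only the groups compared, a replicate block, the technical set, array weights and leaving out each array.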

Additional observations from a re-analysis of the deposited data

How the results depend on the processing

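No call on the main probe set of a member changed sign under an alternative; other probe sets and list genes were not refitted. Of 32 such calls, median scaling kept 31, a constant of 64 kept 30, the filter on dim probe sets 31, 1 probe set per gene 32, array quality weights 32, the technical set as a term 28, the second brightest probe set 25, no scaling 21 and a fit of only the groups compared 17. Within the high technical set, 16 of the 20 that could be fitted were kept. That set holds no HBSS 12 h array, so comparisons with those arrays could not be fitted there. Counts of members called moved as follows. For MACA against HBSS at 12 h, 3 became 7 with no scaling and 1 with only the groups compared. For MACA against BSA at 12 h, 1 became 0 with no scaling or only the groups compared, and 2 with the replicate block, with the technical set as a term or within the high set. For MACA against HBSS at 3 h, 2 became 0 with no scaling, the second probe set, only the groups compared or the high set, and 1 with a constant of 64. For BSA against HBSS, 0 became 4 at 12 h with no scaling and 1 at 3 h with array weights. After BSA, 8 between times became 5 with no scaling (2 higher and 3 lower) and 1 with only the groups compared. After HBSS, 9 became 8 with no scaling (4 higher and 4 lower). After MACA, 9 became 6 both with no scaling and with only the groups compared. For the difference of the time change between MACA and HBSS, 0 became 2 with no scaling. Without scaling the median of all probe sets moved by -0.55 for MACA and -0.45 for BSA against HBSS at 12 h, 0.69 for HBSS between times and -0.64 for the difference of time changes. Leaving out 1 array gave 0 to 3 for MACA against HBSS at 12 h, 1 to 2 at 3 h, 0 to 2 for MACA against BSA at 12 h, 0 to 0 at 3 h, 0 to 0 for BSA against HBSS at 12 h and 0 to 1 at 3 h. Between times it gave 8 to 9 after MACA, 7 to 8 after BSA and 9 to 9 after HBSS, and for the differences of time change 0 to 1 against HBSS and 0 to 0 against BSA. The labels do not say that replicate numbers pair the lungs, and in no 2 groups did every same-numbered pair correlate above 0.1 in deviations from group means (15 of 48 pairs did, range -0.15 to 0.39, highest for MACA 3 h with BSA 12 h replicate 3). The replicate block ended 1 call, that of Clock for MACA against HBSS at 12 h (adjusted p = 0.075), where another member was gained (3 called in both fits). At 3 h the block took 2 to 3. Arrays at or near the noise level limit Arntl and Npas2 at 3 h and Per2, Per3 and Nr1d1 at 12 h.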
